A study of Mus musculus with 28 samples.

Results

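Collagen chain genes encode the alpha chains that wind into collagen triple helices. All genes whose symbol has the form Col, a type number, the letter a and a chain number were taken, which gave 44 genes, each annotated as protein coding, of 55536 counted. They were followed in mouse EO771 breast cancer cells, C2C12 myotubes and MLg lung fibroblasts. The 7 groups, of 4 libraries each, were EO771 co-cultured with C2C12, EO771 co-cultured with MLg, C2C12 co-cultured with EO771, MLg co-cultured with EO771, and EO771, C2C12 and MLg each not co-cultured. All 3 are established lines, every group is labelled wild type, and the labels name no agent or time. In the co-cultures EO771 was kept directly on the other cells, and the title of the study names hypoxia as a driver of the antiproliferative effect that muscle cells had on it. The labels do not say how the lines of a co-culture were separated or whether replicate libraries stem from different dishes, so each p-value rests on a library-to-library spread that may be technical.

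Fibrillar collagens (types I, II, III, V, XI, XXIV and XXVII) form the tensile fibrils of connective tissue, and type IV collagen forms the sheet of the basement membrane. Type VI forms beaded filaments around muscle fibres and other cells, type VII anchors epithelium to the underlying tissue, and fibril-associated collagens such as types XII, XIV and XVI decorate fibrils. Each chain is hydroxylated and glycosylated in the endoplasmic reticulum, exported, trimmed of its propeptides and crosslinked, and several of the hydroxylases and crosslinking enzymes are known hypoxia target genes.

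Library totals ran from 27.6 to 96.5 M counts, so that a count of 0, which allows up to 3 counts, stands for at most 0.0311 to 0.109 counts per M total counts (CPM) in a library; these limits cover counting error only. Of 12 muscle markers, 11 reached 1 CPM in C2C12 alone, and of 12 fibroblast markers, 10 did in MLg alone. The fibroblast markers do not set MLg far apart from C2C12, which had 8 of them at 1 CPM or more when alone; they summed to 3610 to 4743 CPM there and, overlapping, 4346 to 5354 CPM in MLg alone. EO771 alone had only 2 of 10 epithelial markers at that level, Krt8 at 93.3 CPM and Ovol1 at 7.16 CPM, while Epcam, Cdh1 and Krt18 were each under 1 CPM. The 3 C2C12 libraries with the number R3 (R3-1 of the co-cultured group, and R3-1 and R3-2 of C2C12 alone) stood apart from the other 5, with muscle markers summing to 338 to 626 CPM against 1930 to 4318 CPM.

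Of the 44 genes, 34 reached a mean of 1 CPM in at least 1 group and 10 stayed under 1 CPM in all 7 (Col4a3, Col6a5, Col6a6, Col9a1, Col9a2, Col10a1, Col13a1, Col19a1, Col22a1 and Col26a1). The number at 1 CPM or more was 21 in EO771 with C2C12, 22 in EO771 with MLg, 30 in C2C12 with EO771 and 27 in MLg with EO771, against 19 in EO771 alone, 30 in C2C12 alone and 26 in MLg alone. Collagen transcripts made up 0.263% ± 0.055 of all counts in EO771 with C2C12 and 0.206% ± 0.0231 in EO771 with MLg, against 0.2% ± 0.0384 in EO771 alone (SD, n = 4 each). They made up 4.12% ± 0.57 in C2C12 with EO771 and 3.82% ± 0.525 in C2C12 alone, and 2.87% ± 0.158 in MLg with EO771 and 3.17% ± 0.306 in MLg alone (SD, n = 4 each). The ranges of the libraries overlapped in each of these pairs. The heat map of 20 genes by group sets out the level of each chain.

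**Figure D1:**
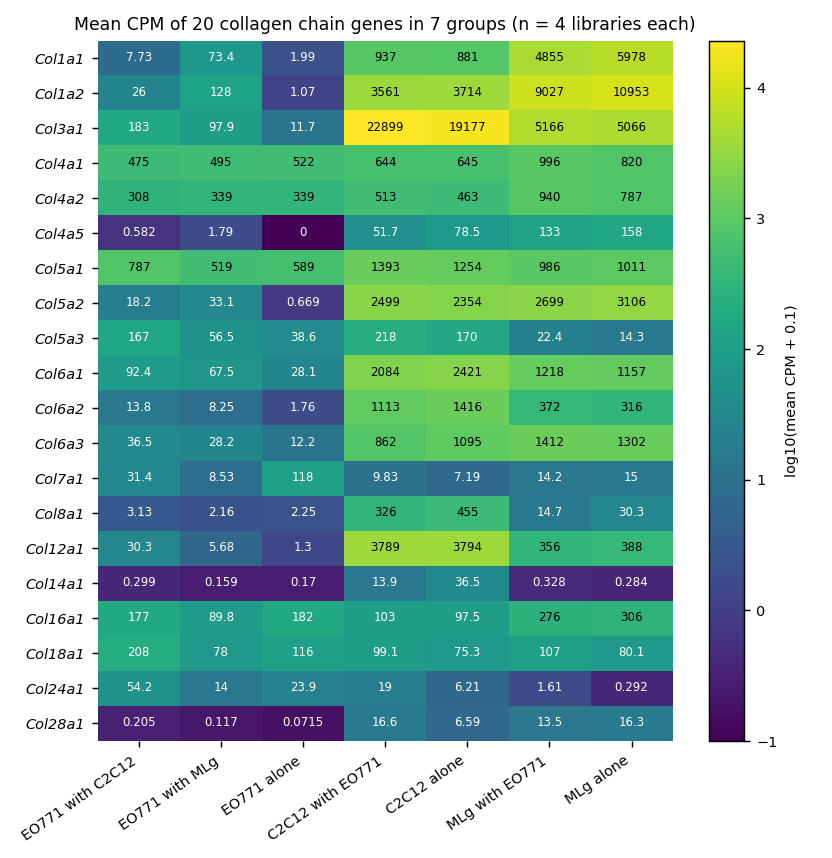
Mean CPM of 20 collagen chain genes (rows) in the 7 groups (columns, n = 4 libraries each), coloured by log10 of the mean plus 0.1 and with the mean written in each cell. Col3a1 led in both C2C12 groups, at 22899 and 19177 CPM, while Col1a1, Col1a2, Col5a2 and Col12a1 were each under 2 CPM in EO771 alone.

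The 3 lines carried different sets of collagen chains when grown alone. By level per transcript length (transcripts per M, TPM, from total exon length), EO771 alone was led by Col4a1 at 223 ± 52.5 TPM, Col5a1 at 221 ± 48.2 TPM and Col4a2 at 164 ± 39.1 TPM, followed by Col16a1, Col18a1 and Col7a1 (SD, n = 4). C2C12 alone was led by Col3a1, the chain of type III collagen, at 6846 ± 382 TPM, with Col6a1 next at 1940 ± 665 TPM. MLg alone was led by the type I pair, Col1a1 at 3044 ± 321 TPM and Col1a2 at 2949 ± 307 TPM. In counts, 6 genes (Col5a1, Col4a1, Col4a2, Col16a1, Col7a1 and Col18a1) held 93.3% of all collagen counts in EO771 alone, Col3a1 held 50.2% of those in C2C12 alone, and Col1a2 and Col1a1 held 34.6% and 18.9% of those in MLg alone.

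Between EO771 alone and C2C12 alone, 8 of the 37 collagen genes tested were higher in EO771 and 27 lower; over all genes tested 36.2% were called higher and 42% lower (78.2% either way) at an adjusted p under 0.05. Between EO771 alone and MLg alone, 5 of 37 were higher and 25 lower, against 36.8% and 40.8% of all genes (77.6% either way). Between C2C12 alone and MLg alone, 14 of 37 were higher and 13 lower, against 31% and 30.9% of all genes (61.9% either way). Col7a1, the chain of anchoring fibrils, averaged 118 CPM in EO771 alone, 7.19 CPM in C2C12 alone and 15 CPM in MLg alone, and was higher in EO771 than in C2C12 (log2 fold change 3.9, SE 0.262, edgeR adjusted p 6.38e-09) and than in MLg (2.97, SE 0.25, adjusted p 7.8e-08). Col24a1, a fibrillar chain known from developing bone, averaged 23.9 CPM in EO771 alone, 6.21 CPM in C2C12 alone and 0.292 CPM in MLg alone. Its log2 fold changes were 1.81 and 6.36 for EO771 over C2C12 and over MLg (SE 0.283 and 0.367, edgeR adjusted p 4.62e-05 and 1.4e-09).

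The fibrillar chains of connective tissue set the partners far above EO771. Col1a1 averaged 1.99 CPM in EO771 alone, 881 CPM in C2C12 alone and 5978 CPM in MLg alone, and Col3a1 averaged 11.7, 19177 and 5066 CPM in the same order. Col12a1, a fibril-associated chain, and Col8a1, a short network-forming chain, were higher in C2C12 alone than in MLg alone by log2 fold changes of 3.47 and 4.08 (SE 0.342 and 0.312, edgeR adjusted p 1.11e-06 and 9.13e-08). Col14a1, another fibril-associated chain, averaged 36.5 CPM in C2C12 alone, 0.284 CPM in MLg alone and 0.17 CPM in EO771 alone. Col18a1, whose C-terminal fragment is endostatin, passed the test in none of the 3 pairs, with adjusted p of 0.836 for C2C12 against MLg, 0.0863 for EO771 against C2C12 and 0.0556 for EO771 against MLg (edgeR).

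Because the partners carried some chains far above the EO771 level, a trace of its RNA in an EO771 library counts as collagen expression of EO771. That trace was measured from transcripts outside the collagen family that were under 0.1 CPM in EO771 alone and at 20 CPM or more in the partner both alone and co-cultured. Their median level in an EO771 library, as a share of their level in the co-cultured partner, was 0.555% to 1.3% in EO771 with C2C12 (mean 0.953%, 335 transcripts) and 1.03% to 1.91% in EO771 with MLg (mean 1.55%, 301 transcripts). The same transcripts gave a band, from their 5th to their 95th percentile, of 0.503% to 7.56% for C2C12 as partner and 1.11% to 2.21% for MLg. In the other direction the share was 4.12% ± 0.785 in C2C12 with EO771 (49 transcripts) and 8.42% ± 3.21 in MLg with EO771 (55 transcripts; SD, n = 4 libraries each). Muscle markers summed to 80.5 to 340 CPM in EO771 with C2C12 against 7.02 to 9.36 CPM in EO771 alone, while fibroblast markers summed to 233 to 266 CPM in EO771 with MLg and, overlapping, 218 to 239 CPM in EO771 alone. Whether such a trace comes from partner cells or from their free RNA was not tested, and in bulk libraries fewer cells of a type and less RNA per cell cannot be told apart.

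For each collagen gene the excess over EO771 alone was set against the level in the partner, and a gene whose excess lay inside the band cannot be told apart from partner RNA by level. In EO771 with C2C12, Col5a3, Col24a1, Col18a1, Col5a1 and Col17a1 lay above the band among the genes called higher, and Col3a1, Col1a1, Col1a2, Col5a2, Col12a1, Col4a5, Col6a1, Col6a2 and Col6a3 lay inside it. In EO771 with MLg only Col6a1 lay above the band among the genes called higher. Counts minus the partner's level times the share of each library (the median share, and as a second version the upper quartile share) were also tested.

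**Figure D2:**
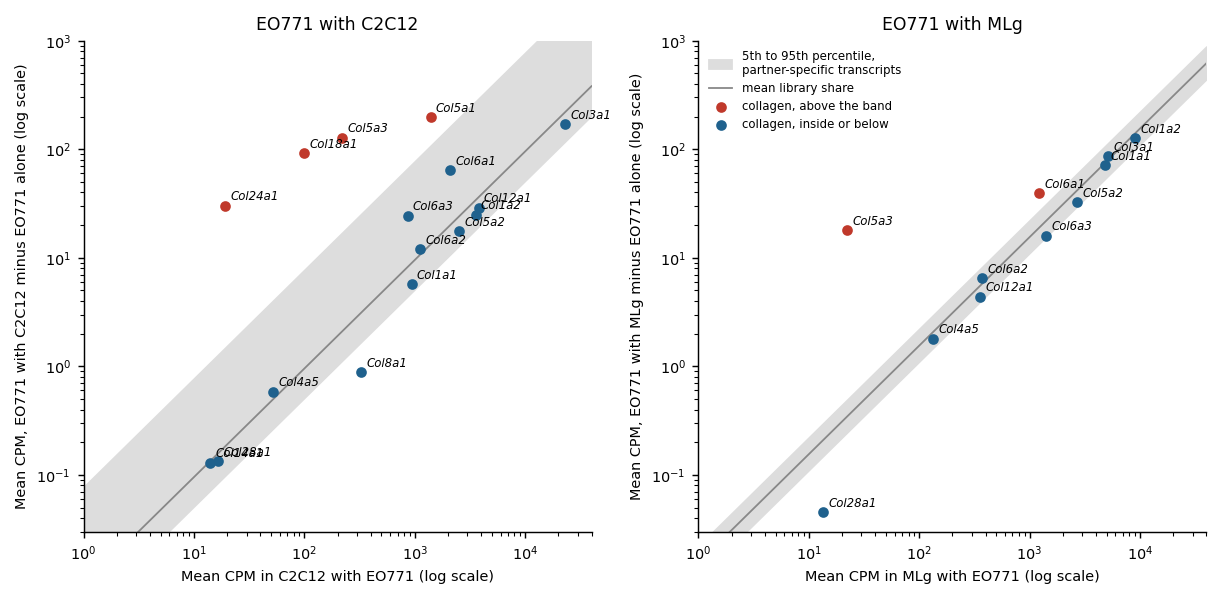
Mean CPM in co-cultured EO771 minus mean CPM in EO771 alone (y axis, log scale) against mean CPM in the co-cultured partner (x axis, log scale), for C2C12 (left) and MLg (right) as partner; each point is 1 of the 20 genes of the heat map, and genes with no excess are not drawn. The grey band spans the 5th to 95th percentile of partner-specific transcripts, and Col24a1, Col18a1, Col5a3 and Col5a1 stand above it on the left while Col1a1, Col1a2 and Col3a1 lie inside it in both panels.

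In EO771 co-cultured with C2C12, Col5a3 and Col24a1 rose by more than the band of partner-specific transcripts, and Col7a1 fell. The comparison asks how contact with myotubes changes the cancer cells. Of the 26 collagen genes that passed the filter on low counts, 14 were called higher and 1 lower, against 18.7% of all 15794 genes called higher and 14.3% lower (33% either way). The median log2 fold change was 0.75 over the 26 and 0.001 over all genes tested, but a gene that is low in EO771 alone could pass the filter only through its level in co-culture, so the count is a description. By class the genes called higher were 7 of 10 fibrillar, 3 of 3 type VI, 1 of 4 type IV, 1 of 3 fibril-associated, 1 of 2 transmembrane and 1 of 2 multiplexin genes tested.

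After subtraction at the median share 7 of these 15 calls were kept: Col5a3, Col24a1, Col18a1, Col5a1, Col6a1 and Col17a1 higher and Col7a1 lower. The same number was kept at the upper quartile share. Col17a1 averaged only 0.866 CPM in EO771 with C2C12 and 0.202 CPM in EO771 alone. Subtraction gave 6 higher and 6 lower calls at the median share, and 6 higher and 7 lower at the upper quartile share, against 14 and 1 as counted. The added lower calls were of Col3a1, Col1a1, Col1a2 and Col5a2, which subtraction at either share left with no counts in EO771 with C2C12, of Col8a1, and at the upper quartile share of Col12a1. The same share was taken from all genes of a library, so chains with a smaller excess fell below EO771 alone by construction. Col8a1 averaged 3.13 CPM with C2C12 and 2.25 CPM alone, an excess of 0.27% of the partner's level. These added lower calls are therefore no measure of a fall. Per library values are given below in the order R3-1, R5-1, R5-2 and R6-1 for EO771 with C2C12, R5-1, R6-1, R6-2 and R7-1 for EO771 with MLg, and R3-1, R3-2, R5-1 and R6-2 for EO771 alone.

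Col5a3 (ENSMUSG00000004098, GRCm38 chr9:20770050-20815067, minus strand) encodes the alpha3 chain of type V collagen, which regulates fibril assembly. It had 263, 120, 138 and 146 CPM in EO771 with C2C12, 53.7, 47.5, 50.6 and 74.4 CPM in EO771 with MLg, and 40.7, 53.4, 31.6 and 28.6 CPM in EO771 alone. Every library with C2C12 lay above every other EO771 library, while EO771 with MLg overlapped EO771 alone. The means were 167 CPM in EO771 with C2C12 and 38.6 CPM in EO771 alone (log2 fold change 2.04, SE 0.22, edgeR adjusted p 1.72e-06), and the excess was 58.8% of the level in the partner, against a band that ends at 7.56%. Without the highest library, R3-1, the log2 fold change was 1.74.

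Col24a1 (ENSMUSG00000028197, chr3:145292472-145552011, plus strand) had 95.3, 46.6, 43.1 and 31.8 CPM in EO771 with C2C12, 11.7, 14.0, 11.4 and 19.0 CPM in EO771 with MLg, and 21.6, 28.2, 22.5 and 23.4 CPM in EO771 alone. All 4 libraries with C2C12 lay above, and all 4 with MLg below, all 4 of EO771 alone. The excess with C2C12 was 160% of the level in the partner, so its level in the cancer cells was above that in the myotubes they lay on. The log2 fold change over EO771 alone was 1.1 (SE 0.237, edgeR adjusted p 0.00156), and 0.69 with an adjusted p of 0.00331 without library R3-1.

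Col7a1 (ENSMUSG00000025650, chr9:108953586-108984875, plus strand) had 31.9, 26.1, 32.8 and 34.9 CPM in EO771 with C2C12, 7.02, 6.37, 7.70 and 13.0 CPM in EO771 with MLg, and 102, 139, 135 and 96.8 CPM in EO771 alone. The 3 groups did not overlap anywhere, and both co-cultures lay under EO771 alone. The log2 fold change with C2C12 was -1.99 (SE 0.175, edgeR adjusted p 1.75e-07), and it was -1.96 and -1.95 after the subtractions.

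Col18a1 had 348, 162, 180 and 144 CPM in EO771 with C2C12, 82.8, 63.7, 53.3 and 112 CPM in EO771 with MLg, and 114, 169, 98.7 and 84.2 CPM in EO771 alone, and Col5a1 had 916, 715, 780 and 736 CPM, 550, 484, 462 and 580 CPM, and 543, 736, 585 and 492 CPM in the same order. For both genes the libraries with C2C12 overlapped those of EO771 alone. Both were called higher, Col18a1 by a log2 fold change of 0.76 (SE 0.257, edgeR adjusted p 0.0286) and Col5a1 by 0.34 (SE 0.124, adjusted p 0.0394). Without library R3-1 of EO771 with C2C12 neither passed, at 0.41 with an adjusted p of 0.181 for Col18a1 and 0.27 with an adjusted p of 0.13 for Col5a1, and DESeq2 gave Col18a1 an adjusted p of 0.107.

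All 3 type VI genes tested lay inside the band for C2C12, and Col6a1 kept its call after subtraction. It had 149, 74.5, 73.2 and 72.8 CPM in EO771 with C2C12, 61.1, 63.0, 62.2 and 83.7 CPM in EO771 with MLg, and 30.5, 32.5, 25.0 and 24.4 CPM in EO771 alone. Both co-cultures lay wholly above EO771 alone, and 1 library of each, R3-1 with C2C12 and R7-1 with MLg, stood apart from its group. The log2 fold change with C2C12 was 1.64 (SE 0.19, edgeR adjusted p 3.62e-06), and it was 1.32 and 1.07 after the subtractions, with adjusted p of 0.000277 and 0.00715. The excess of Col6a1 was 3.08% of the level in the partner. That is above the largest share subtracted, 2.13% in library R6-1, and inside the band, which ends at 7.56%. Despite the kept call it cannot be told apart from partner RNA by level. Col6a3 was not called after subtraction (1.51 as counted, 1.17 with an edgeR adjusted p of 0.0602 and 0.91 with an adjusted p of 0.262), nor was Col6a2 (2.89 as counted, 1.07 with an adjusted p of 0.404).

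The remaining calls were of chains that C2C12 carries in bulk. Col3a1 had 242, 106, 146 and 237 CPM in EO771 with C2C12 and 11.7, 12.0, 12.6 and 10.4 CPM in EO771 alone, and its excess was 0.748% of the level in C2C12 with EO771. Col1a1, Col1a2, Col5a2 and Col12a1 had excesses of 0.612%, 0.701%, 0.701% and 0.765%, all near the mean share of 0.953%. The 2 libraries with the highest share of partner-specific transcripts, R6-1 at 1.3% and R3-1 at 1.18%, were also the highest for Col3a1, Col1a1, Col1a2, Col5a2 and Col12a1; the part of partner RNA in these levels was not tested. Col4a5, a type IV chain, had 0.990, 0.295, 0.145 and 0.898 CPM with C2C12 and no count in any library of EO771 alone.

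The ratio between paired chains uses no share. In counts, Col1a1 over Col1a2 was 0.318 ± 0.0569 in EO771 with C2C12 and 2.01 ± 0.637 in EO771 alone (SD, n = 4), and 0.269 ± 0.0443 in the partner C2C12 with EO771. With MLg it was 0.56 ± 0.0665, beside 0.538 in the partner MLg with EO771. For Col6a1 over Col6a2 it was 7.18 ± 1.41 with C2C12 and 8.81 ± 2.84 with MLg, against 16 ± 2.09 in EO771 alone. The co-cultured C2C12 and MLg had 1.93 ± 0.178 and 3.29 ± 0.203. The excess of Col6a1 and of Col6a2 was 64.3 and 12 CPM with C2C12, and 39.4 and 6.48 CPM with MLg. Col6a3 over Col6a1 was 0.39 with C2C12, 0.426 with MLg and 0.434 in EO771 alone. The part of partner RNA in these ratios was not tested. For Col4a1 over Col4a2, which EO771 carries itself, the ratio was 1.54 ± 0.0822 with C2C12 and 1.46 ± 0.0348 with MLg, against 1.54 ± 0.0333 in EO771 alone. In the libraries this ratio was 1.45 to 1.62 with C2C12, overlapping EO771 alone, and 1.42 to 1.5 with MLg, below the 1.51 to 1.59 of EO771 alone in every library. The type IV pair, leading in EO771, was not called in either co-culture: Col4a1 had 578, 422, 454 and 444 CPM with C2C12, 541, 489, 469 and 480 CPM with MLg and 470, 670, 504 and 443 CPM alone, with overlapping groups and adjusted p of 0.228 and 0.858 (edgeR).

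**Figure D3:**
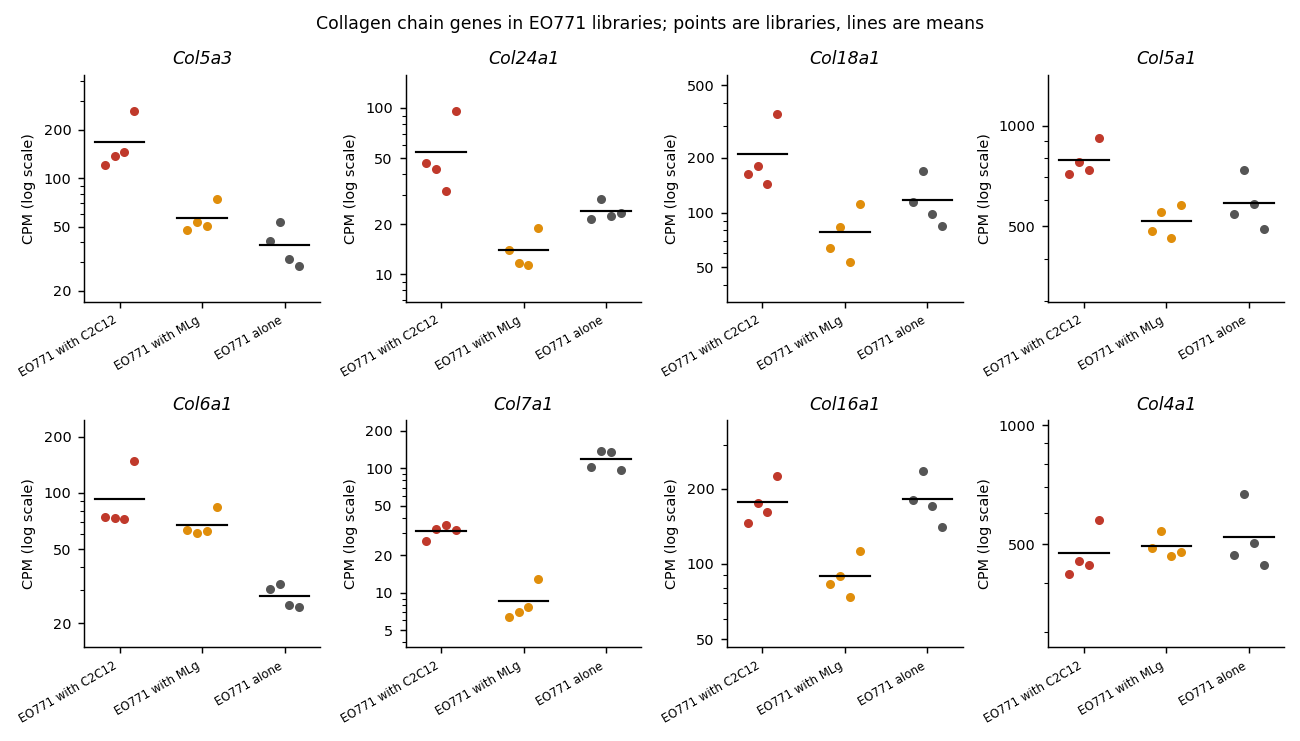
CPM (log scale) of 8 collagen chain genes in the EO771 libraries with C2C12, with MLg and alone; points are libraries (n = 4 per group) and lines are group means. Col5a3 and Col24a1 are highest with C2C12, Col7a1 is lower in both co-cultures with no overlap between the 3 groups, and Col4a1 overlaps throughout.

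Promoter sequence is given for Col5a3 and Col24a1, which rose above the band with C2C12, for Col7a1, which fell in both co-cultures, and for the type IV pair, which lies head to head. RefSeq windows of 250 bases before and 50 after the annotated start (GRCm38.p6) were held for 35 of the 44 genes, as 38 windows. Capitals mark matches, on either strand, to the hypoxia response core (ACGTG or GCGTG), the cyclic AMP response element (TGACGTCA), the CCAAT box (CCAAT) or the GC box (GGGCGG); the sequences run 5′ to 3′ on the strand of the gene, for Col5a3 from chr9:20815018-20815317 (minus), for Col24a1 from chr3:145292222-145292521 (plus) and for Col7a1 from chr9:108953336-108953635 (plus).
Col5a3: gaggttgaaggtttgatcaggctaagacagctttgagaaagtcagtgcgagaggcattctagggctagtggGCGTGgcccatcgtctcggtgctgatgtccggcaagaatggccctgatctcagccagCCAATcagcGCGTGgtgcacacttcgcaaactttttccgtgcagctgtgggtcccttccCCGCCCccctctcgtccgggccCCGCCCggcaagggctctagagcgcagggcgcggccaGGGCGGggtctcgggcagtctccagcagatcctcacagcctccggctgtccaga
Col24a1: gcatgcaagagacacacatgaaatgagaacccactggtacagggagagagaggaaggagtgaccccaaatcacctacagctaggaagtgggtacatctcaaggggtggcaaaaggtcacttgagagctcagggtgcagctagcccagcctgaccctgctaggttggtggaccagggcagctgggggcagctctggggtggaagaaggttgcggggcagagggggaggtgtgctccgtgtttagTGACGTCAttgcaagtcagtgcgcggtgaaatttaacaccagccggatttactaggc
Col7a1: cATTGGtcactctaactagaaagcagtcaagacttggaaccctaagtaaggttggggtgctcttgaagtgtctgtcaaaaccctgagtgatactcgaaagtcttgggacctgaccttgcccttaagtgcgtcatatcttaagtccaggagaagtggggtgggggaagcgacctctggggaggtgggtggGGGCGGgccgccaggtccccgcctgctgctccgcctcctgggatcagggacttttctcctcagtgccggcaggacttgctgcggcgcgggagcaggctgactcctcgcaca

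The Col5a3 window held the hypoxia response core at bases 72 to 76 and 138 to 142, with a CCAAT box at 129 and 3 GC boxes. The Col24a1 window held a cyclic AMP response element at bases 244 to 251 and none of the other motifs, and the Col7a1 window held a CCAAT box and a GC box. The hypoxia response core is common: it stood in 43.8% of 32851 promoter windows and in 13 of the 38 collagen windows. Among these were the Col4a1 and Col4a2 windows printed below, at bases 80 to 84 and 146 to 150, where capitals do not mark it. The cyclic AMP response element stood in 1.79% of all windows and in 1 collagen window, CCAAT in 37.4% and 13, and the GC box in 35.7% and 23. A match is a run of letters and not a binding site.

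Col4a1 and Col4a2 lie head to head, with RefSeq starts 21 bases apart and 22 exon bases shared on opposite strands, so reads in that overlap could be counted for either gene. Their windows, chr8:11312777-11313076 (minus) and chr8:11312555-11312854 (plus), share the 78 bases in capitals, each written on the strand of its own gene.
Col4a1: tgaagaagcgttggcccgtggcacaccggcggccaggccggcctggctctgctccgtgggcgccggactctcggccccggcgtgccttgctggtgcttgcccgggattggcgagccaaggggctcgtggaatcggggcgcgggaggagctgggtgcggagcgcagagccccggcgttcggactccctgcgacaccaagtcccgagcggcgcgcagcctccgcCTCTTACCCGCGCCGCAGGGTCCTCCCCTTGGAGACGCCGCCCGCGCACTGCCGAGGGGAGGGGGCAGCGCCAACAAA
Col4a2: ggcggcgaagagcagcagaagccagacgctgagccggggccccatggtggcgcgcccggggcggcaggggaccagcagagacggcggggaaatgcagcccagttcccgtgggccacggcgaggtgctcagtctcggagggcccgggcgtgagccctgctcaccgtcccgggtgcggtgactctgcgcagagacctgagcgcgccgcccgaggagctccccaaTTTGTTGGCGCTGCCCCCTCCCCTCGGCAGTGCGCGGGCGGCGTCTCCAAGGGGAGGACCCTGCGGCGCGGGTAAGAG

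In EO771 co-cultured with MLg, Col7a1 and Col16a1 fell, and nearly all genes called higher lay inside the band. Of the 26 genes tested, 9 were called higher and 3 lower, against 5.99% of all genes higher and 3.6% lower (9.59% either way). As with C2C12, a gene low in EO771 alone could pass the filter only through its level in co-culture, so this count is a description. The 2 comparisons with EO771 alone share those 4 libraries. Col7a1, at the values given above, averaged 8.53 CPM in EO771 with MLg and 118 CPM in EO771 alone (log2 fold change -3.79, SE 0.191, edgeR adjusted p 2.3e-10). Col16a1, a fibril-associated chain, had 89.6, 83.0, 73.7 and 113 CPM in EO771 with MLg, 225, 146, 176 and 161 CPM in EO771 with C2C12, and 180, 236, 171 and 141 CPM in EO771 alone. The libraries with MLg lay under all others, and the log2 fold change was -1.01 (SE 0.155, edgeR adjusted p 0.00016). Col15a1, the third gene called lower, was at 0.0993 CPM with MLg and 0.389 CPM alone.

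Of the 9 genes called higher with MLg, 8 lay inside the band: Col1a1, Col1a2, Col3a1, Col5a2, Col12a1, Col6a2, Col6a3 and Col4a5. Col1a2 had 163, 106, 80.1 and 162 CPM in EO771 with MLg and 1.26, 0.795, 1.54 and 0.702 CPM in EO771 alone, an excess of 1.4% of the level in MLg with EO771. Col1a1 had 94.4, 52.3, 41.9 and 105 CPM and 1.79, 1.85, 2.4 and 1.94 CPM in the same order, an excess of 1.47%. For both, R7-1 and R5-1, the libraries with the highest shares of partner-specific transcripts (1.91% and 1.78%), were highest and R6-2 (1.03%) was lowest, and the part of partner RNA in them was not tested. Col6a1 stood above the band, at 3.24% of the level in MLg, with a log2 fold change of 1.27 as counted (SE 0.188, edgeR adjusted p 0.000108), 0.84 after subtraction at the median share (adjusted p 0.032) and 0.7 at the upper quartile share (adjusted p 0.163). Col5a3 and Col24a1 were not called with MLg, at log2 fold changes of 0.56 (SE 0.215, adjusted p 0.122) and -0.76 (SE 0.24, adjusted p 0.0527), but with all 28 libraries in 1 edgeR fit Col5a3 passed at 0.61 (adjusted p 0.0467).

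Set directly against each other, the EO771 co-cultures differed in chains above the band and in others: of the 8 genes higher with C2C12, Col24a1, Col5a3, Col18a1 and Col5a1 lay above the band for C2C12, Col3a1 and Col12a1 inside it, and Col7a1 and Col16a1 had no excess over EO771 alone. Of 26 genes, 8 were higher in EO771 with C2C12 than in EO771 with MLg and 5 lower, against 15% and 12.7% of all genes (27.7% either way). Col24a1 differed by a log2 fold change of 1.86 (SE 0.243, edgeR adjusted p 2.32e-05), Col7a1 by 1.8 (adjusted p 1.26e-06), Col5a3 by 1.48 (adjusted p 7.49e-05), Col18a1 by 1.33 (adjusted p 0.00103), Col16a1 by 0.89 (adjusted p 0.000345) and Col5a1 by 0.51 (adjusted p 0.00508). These 6 were called at both subtractions as well. The other 2 were Col12a1 at 2.32 (adjusted p 1.39e-05) and Col3a1 at 0.81 (adjusted p 0.00304), and neither was called higher after subtraction: Col12a1 had 2.64 with an adjusted p of 0.172 at the median share, and Col3a1 was left with no counts in EO771 with C2C12. Col1a1, Col1a2, Col5a2, Col4a5 and Col11a1 were the 5 lower ones, at log2 fold changes of -3.34, -2.39, -0.95, -1.72 and -2.3. In EO771 with MLg all 5 lay inside the band for MLg. Col4a5 averaged only 0.582 CPM with C2C12 and 1.79 CPM with MLg, and Col11a1 0.162 and 0.721 CPM. Col6a1 was not called between the co-cultures (0.37, adjusted p 0.146).

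Genes that modify, crosslink and degrade collagen were counted over fixed lists in the same EO771 libraries. The lists were written with earlier results of these data known. A list gene low in EO771 alone could likewise pass the filter only through its level in co-culture, so these counts are a description. With C2C12, 6 of 14 tested genes for chain hydroxylation and glycosylation were higher and 1 lower, against 18.7% and 14.3% of all genes, and all 6 lay above the band. Plod2, which hydroxylates lysines of the chain ends, had 341, 273, 296 and 298 CPM in EO771 with C2C12, 85, 103, 104 and 98.9 CPM in EO771 with MLg, and 114 to 139 CPM in EO771 alone. The prolyl hydroxylase subunits P4ha1 and P4ha2 had 158 to 195 CPM and 155 to 207 CPM with C2C12, 83.4 to 97 CPM and 59.1 to 83.5 CPM with MLg, and 84.8 to 94.4 CPM and 66.2 to 82.8 CPM alone. The libraries with C2C12 overlapped neither of the other groups for these 3 genes, with log2 fold changes over EO771 alone of 1.23, 0.87 and 1.21 (edgeR adjusted p 4.79e-08, 7.13e-07 and 4.02e-07). Plod1, P3h3 and P4hb were the other 3 higher, and P4ha3 was lower at 8.57 CPM with C2C12 and 18.7 CPM alone.

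Of 11 tested genes for propeptide removal and crosslinking, 6 were higher and 2 lower with C2C12, against the same 18.7% and 14.3%, and 3 of the 6 lay above the band. Loxl2, a lysyl oxidase, had 71.3 to 85.2 CPM in EO771 with C2C12, 7.34 to 9.15 CPM in EO771 with MLg and 6.82 to 11.1 CPM in EO771 alone, a log2 fold change of 3.13 with C2C12 (SE 0.138, edgeR adjusted p 6.25e-11) and -0.07 with MLg (SE 0.134, adjusted p 0.846). Adamts14, a procollagen N-proteinase, averaged 95.2 CPM with C2C12, 57.9 CPM with MLg and 31.9 CPM alone and was called higher in both co-cultures. Bmp1, a procollagen C-proteinase, averaged 176, 128 and 234 CPM in the same order and was called lower in both. Mmp14, a membrane collagenase, had 340 to 494 CPM with C2C12 and 247 to 297 CPM with MLg, against 148 to 166 CPM alone, and was also called higher in both, by 1.26 and 0.78 (SE 0.118 and 0.117, edgeR adjusted p 3.86e-07 and 0.000126).

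The 4 folding and export genes called higher with C2C12, of 11 tested (1 lower; 18.7% and 14.3% of all genes), all lay inside the band. Of the collagen receptors tested, 2 of 8 were higher with C2C12, with the discoidin receptor Ddr1 above the band at 38.3 CPM, against 25.1 CPM alone. With MLg, where 5.99% of all genes were called higher and 3.6% lower, 0 of 14 hydroxylation and glycosylation genes were higher and 2 lower, Plod2 (97.6 CPM with MLg and 122 CPM alone, edgeR adjusted p 0.0449) and P4ha3. With MLg 5 of 11 propeptide and crosslinking genes were higher and 2 lower, 3 of 11 folding and export genes higher and 1 lower, 1 of 8 receptors higher and 2 lower, and 2 of 5 degradation genes higher and 1 lower. Inside the band for MLg lay 3 of the 5 propeptide and crosslinking genes called higher and 2 of the 3 folding and export genes. So did the 1 receptor and 1 of the 2 degradation genes called higher. The collagen-binding integrin gene Itga2 had 1.09 to 2.92 CPM with MLg and 6.15 to 17.5 CPM with C2C12, against 8.73 to 16.3 CPM alone, a log2 fold change of -2.62 with MLg (SE 0.322, edgeR adjusted p 1.51e-05).

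**Figure D4:**
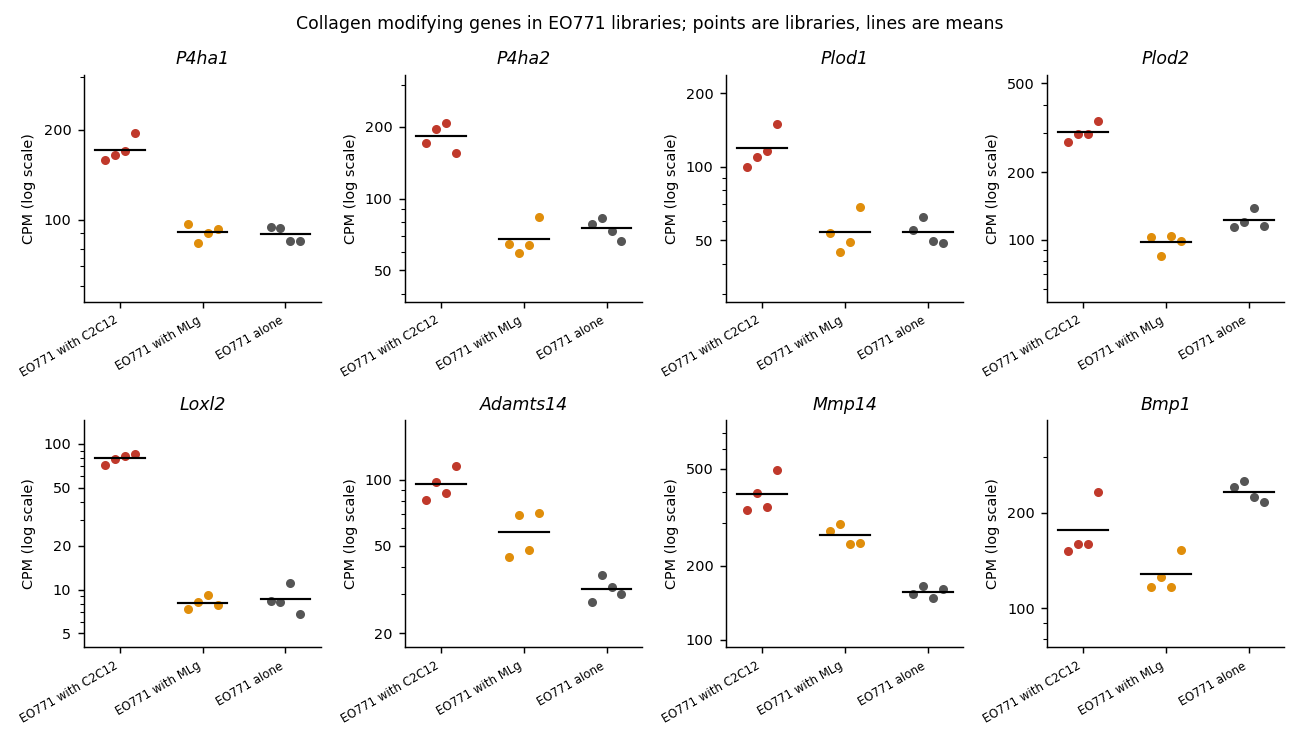
CPM (log scale) of 8 genes that modify, crosslink or cleave collagen in the EO771 libraries with C2C12, with MLg and alone; points are libraries (n = 4 per group) and lines are group means. P4ha1, P4ha2, Plod1, Plod2 and Loxl2 are higher with C2C12 than in both other groups, Adamts14 and Mmp14 are higher and Bmp1 is lower with both partners.

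In C2C12 myotubes co-cultured with EO771, few collagen genes were called. Of 36 tested, 1 was called higher and 1 lower, against 2.58% of all genes higher and 0.0962% lower (2.68% either way), and the median log2 fold change was 0.03. Col14a1 had 15.5, 12.2, 14.5 and 13.3 CPM in C2C12 with EO771 (R3-1, R5-1, R5-2 and R6-1) and 57.7, 29.9, 25.5 and 33.0 CPM in C2C12 alone (R2-1, R3-1, R3-2 and R5-1). The groups did not overlap, and the log2 fold change was -1.44 (SE 0.235, edgeR adjusted p 0.00867), with -1.36 and -1.33 after subtraction of the EO771 share. Col28a1, a chain with von Willebrand factor A domains related to type VI, had 13.6, 10.5, 18.5 and 23.8 CPM in C2C12 with EO771 and 6.20, 6.18, 5.12 and 8.87 CPM in C2C12 alone (1.28, SE 0.258, adjusted p 0.0284). These groups did not overlap either, but the call ended without the R3 libraries (1.2, edgeR adjusted p 0.166). It ended too without C2C12 alone R2-1, R3-1 or R3-2, or C2C12 with EO771 R5-2 or R6-1 (adjusted p 0.0783 to 0.0964). At both subtractions it ended (adjusted p 0.0518 and 0.0507) while the log2 fold change was 1.37 and 1.4. Col28a1 averaged only 0.205 CPM in EO771 with C2C12, so subtraction took almost none of its counts. Col24a1 had 9.88, 17.7, 27.4 and 20.9 CPM in C2C12 with EO771 and 5.25, 3.25, 5.36 and 11.0 CPM in C2C12 alone, and was not called (1.57, SE 0.377, adjusted p 0.0703), though it was called by DESeq2 (1.55, adjusted p 0.000371) and with all 28 libraries in 1 edgeR fit (1.56, adjusted p 0.000785).

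Part of the spread in the myotubes went with the R3 libraries, a split that was seen in these same data. Of the 30 genes at 1 CPM or more in C2C12 alone, 13 had all 3 R3 libraries above the other 5, and 2 (Col23a1 and Col25a1) had them below. The same count was not made over all genes, so it does not set collagen genes apart from others. Col6a1 ran from 3036 to 3244 CPM in the R3 libraries and from 1476 to 1927 CPM in the others, Col6a3 from 1424 to 1597 CPM and from 517 to 778 CPM, and Col15a1 from 19.4 to 25.8 CPM and from 4.92 to 7.99 CPM. Col3a1 showed no such split, with 24825, 21805, 22812 and 22154 CPM in C2C12 with EO771 and 19601, 19033, 20068 and 18009 CPM in C2C12 alone. It was higher in every co-cultured library than in every library alone, yet was not called (log2 fold change 0.2, SE 0.131, edgeR adjusted p 0.671). Of the 51 genes tested on the modification, crosslinking, receptor and degradation lists, 0 were called by edgeR with EO771 (7 at an unadjusted p under 0.05), and DESeq2 called 2 of 56.

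In MLg fibroblasts co-cultured with EO771, Col8a1 fell and Col5a3 rose. Of 32 tested, 3 were called higher and 1 lower, against 9.89% of all genes higher and 4.81% lower (14.7% either way). Col8a1 had 12.5, 15.3, 11.6 and 19.2 CPM in MLg with EO771 (R5-1, R6-1, R6-2 and R7-1) and 40.3, 27.4, 26.8 and 26.7 CPM in MLg alone (R3-2, R5-2, R6-1 and R6-2), without overlap (log2 fold change -1.02, SE 0.176, edgeR adjusted p 0.00209). Col5a3 had 23.7, 20.2, 24.2 and 21.7 CPM in MLg with EO771 and 16.5, 14.8, 12.4 and 13.4 CPM in MLg alone (0.67, SE 0.114, adjusted p 0.00186). Its groups did not overlap, its excess was 14.5% of the level in EO771, above the band of 7.4% to 10.2%, and subtraction at the upper quartile share left 0.45 with an adjusted p of 0.0624. Col24a1 had 1.78, 1.46, 1.40 and 1.79 CPM in MLg with EO771 and 0.230, 0.363, 0.201 and 0.373 CPM in MLg alone, and its excess, 9.37% of the level in EO771, lay inside the band. Col11a1 averaged 43.2 CPM in MLg with EO771 and 86.3 CPM in MLg alone and was not called as counted. With the R number as replicate block edgeR called it lower (-1.14, adjusted p 0.000214). It was also called lower without MLg alone R3-2 (-1.25, adjusted p 9.52e-05) and with all 28 libraries in 1 fit (-0.99, adjusted p 0.0306). Col18a1, likewise not called as counted, was called higher under that block (0.71, adjusted p 0.00036).

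Col4a1 had 955, 986, 1109 and 932 CPM in MLg with EO771 and 905, 838, 737 and 800 CPM in MLg alone. It was called at a log2 fold change of 0.3 (SE 0.0942, edgeR adjusted p 0.0493). The call ended in 6 of the 8 single-library omissions and under both other scalings. It also ended with no filter, with even counts halved and with all 28 libraries in 1 fit. The call was kept at both subtractions (0.39 and 0.42, edgeR adjusted p 0.039 and 0.0305), with the R number as replicate block (adjusted p 0.0103) and by DESeq2 (adjusted p 0.0324). Col4a2, not called as counted, was called at both subtractions (0.38 and 0.42, edgeR adjusted p 0.0479 and 0.0365). The type I chains that lead this line, Col1a1 and Col1a2, were lower in every co-cultured library. Col1a1 had 4792, 4897, 4839 and 4890 CPM in MLg with EO771, and 6407, 6625, 5447 and 5434 CPM in MLg alone. Neither chain was called by edgeR, at log2 fold changes of -0.28 and -0.25 (adjusted p 0.0671 and 0.0711). DESeq2 called both lower, at -0.28 and -0.26 (adjusted p 0.0264 and 0.0199). Of the degradation genes, 4 of 7 were higher and 0 lower in MLg with EO771, against 9.89% and 4.81% of all genes: the collagenase gene Mmp13 averaged 10.2 CPM in MLg with EO771 and 3.14 CPM in MLg alone, the gelatinase gene Mmp2 1715 CPM and 1145 CPM, the cathepsin gene Ctsk 4.68 CPM and 1.74 CPM, and Mmp8 1.43 CPM and 0.464 CPM. Itga2 averaged 11.2 CPM in MLg with EO771 and 35.1 CPM in MLg alone (log2 fold change -1.62, SE 0.175, edgeR adjusted p 5.62e-05).

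The responses of C2C12 and MLg to EO771 were compared in 1 fit of their 16 libraries. Of 38 collagen genes tested, 1 differed with a higher response in C2C12 and 0 with a lower one, against 0.778% and 1.06% of all genes (1.84% either way). It was Col28a1, with a difference of 1.54 on the log2 scale (SE 0.306, edgeR adjusted p 0.011): in MLg it had 10.5, 14.6, 11.9 and 16.9 CPM with EO771 and 17.4, 17.1, 15.5 and 15.1 CPM alone. At an unadjusted p under 0.05 there were 6 genes, and DESeq2 called 1. The call ended at both subtractions of the EO771 share (edgeR adjusted p 0.0673 and 0.06), where the difference was 1.47 and 1.48. Col28a1 itself lost almost no counts by subtraction, at 0.205 CPM in EO771 with C2C12 and 0.117 CPM in EO771 with MLg.

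**Figure D5:**
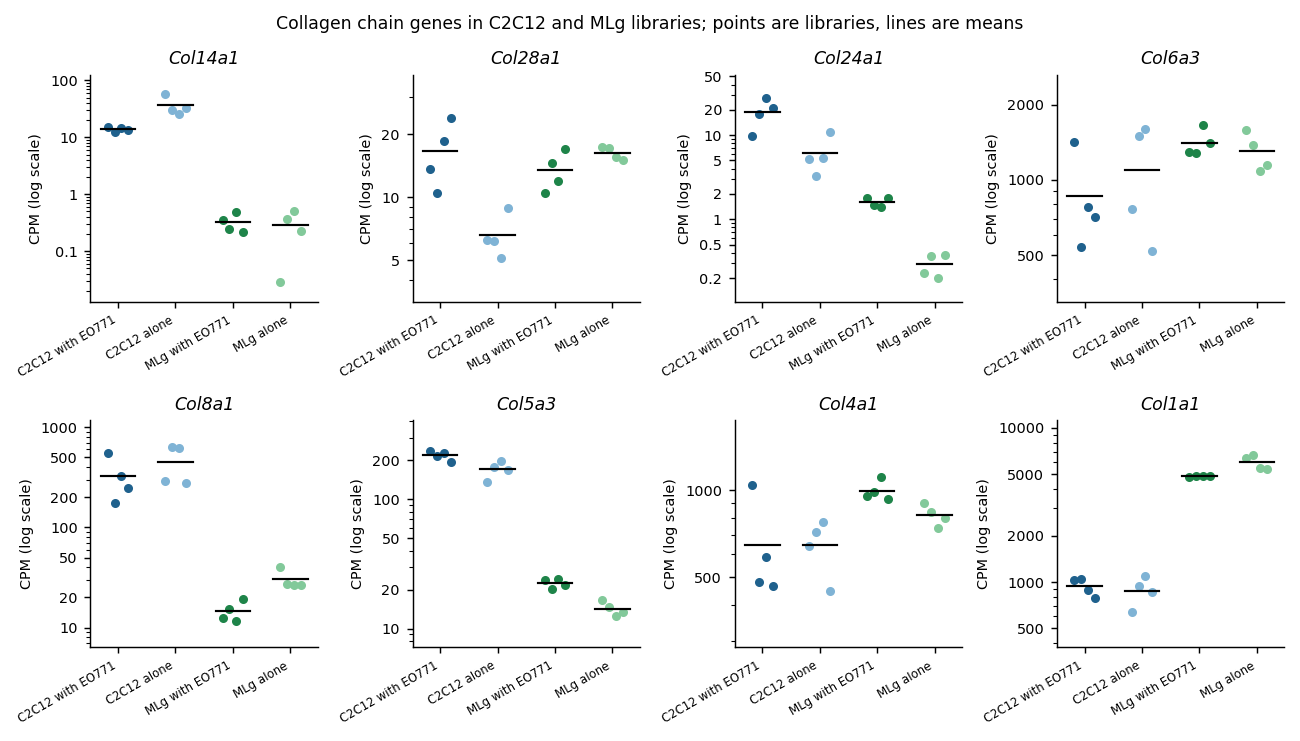
CPM (log scale) of 8 collagen chain genes in C2C12 with EO771, C2C12 alone, MLg with EO771 and MLg alone; points are libraries (n = 4 per group) and lines are group means. Col14a1 is lower in C2C12 with EO771, Col8a1 is lower in MLg with EO771, and Col6a3 in C2C12 splits by library within both groups.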

How the data were processed

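Per the labels' protocols, an RNeasy kit was used for extraction and a TruSeq stranded mRNA kit for the libraries. The authors deposited 1 table of raw gene counts for each library, with whole numbers and unequal totals. Subread 2.0.1, featureCounts, STAR 2.7.10a, DESeq2 and fastp are named without a role in the submitters' processing notes. The build, the annotation and the strand setting remain points not given in the sources used here. Every identifier was found in GENCODE M21 (GRCm38), which gave symbols, coordinates and exon lengths; 55303 of 55536 had a symbol of their own. The members and lists were chosen with earlier results of these data known.

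CPM used library totals. Tests across all genes used edgeR 4.0.16 (R 4.3.3): quasi-likelihood F test, TMM, filterByExpr (minimum count 10, minimum total 15), Benjamini-Hochberg adjustment, calls at an adjusted p under 0.05. The 12 EO771 libraries shared 1 fit, C2C12 and MLg had their own, their 16 libraries gave the difference of responses, and the 12 libraries grown alone gave the lines. The code was tested on simulated data. Values per library are given for a subset of the 20 genes that averaged at least 100 CPM in a group, or were called in co-culture at a log2 fold change of 1 or more and at least 5 CPM; that subset, and the list genes named, were chosen after their values were seen.

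The R number of a library has no stated meaning, and the file names of EO771 with C2C12 R5-1 and R5-2 carry each other's name; the recorded assignment was followed. All counts were even in 5 co-cultured libraries (EO771 with C2C12 R3-1, R5-1 and R6-1, MLg with EO771 R5-1 and R6-1); halving them was an alternative, as were DESeq2 1.42.0, other scalings, no filter, the replicate block, subtraction of partner counts, leaving out libraries and 1 fit of all 28.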

Additional observations from a re-analysis of the deposited data

Results flagged for a closer look

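In 7 of 119 groups of 4 libraries of the named genes, 1 library lay far from the other 3 by Dixon's criterion, which chance alone flags in about 1 group in 20. In EO771 with C2C12, library R3-1 had 149 CPM of Col6a1 (others 72.8 to 74.5 CPM) and 62.1 CPM of Col6a3 (others 25.9 to 30.9 CPM). In EO771 with MLg, R7-1 had 83.7 CPM of Col6a1 (others 61.1 to 63 CPM). In C2C12 with EO771, R6-1 had 8.03 CPM of Col7a1 (others 10.3 to 10.6 CPM), and in C2C12 alone R3-2 had 2472 CPM of Col5a2 (others 2307 to 2330 CPM). In MLg alone, R3-2 had 40.3 CPM of Col8a1 (others 26.7 to 27.4 CPM) and R5-2 had 12367 CPM of Col1a2 (others 10323 to 10580 CPM).

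Col28a1 was called as responding differently to EO771 in C2C12 than in MLg, by 1.54 on the log2 scale (edgeR interaction, adjusted p 0.011). It was higher in all 4 C2C12 libraries with EO771 than in all 4 of C2C12 alone. The call ended at both subtractions (edgeR adjusted p 0.0673 and 0.06) and with all 28 libraries in 1 fit (adjusted p 0.0783). The difference was 1.47, 1.48 and 1.55 in these settings.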

How the results depend on the processing

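Partner counts subtracted at the median and upper quartile share changed the number of collagen genes called to 4 (1 higher, 3 lower) and 7 (0 higher, 7 lower) in EO771 with MLg against alone, 1 and 1 in C2C12 with EO771 against alone, and 0 and 0 in the difference of responses (4 at an unadjusted p under 0.05 each; DESeq2 called 1 as deposited). With all 28 libraries in 1 fit the last 2 were 4 (3 higher, 1 lower) and 0 (4 at an unadjusted p under 0.05); without the R3 libraries of C2C12, an alternative added after seeing the data, C2C12 gave 1. The R numbers, whose meaning is not stated, were not used to pair samples in the main fits. Over 87 pairs of the same number in different groups the correlation of deviations was above 0.1 in 20 (median 0.03, range -0.22 to 0.63). Over 249 pairs of different numbers it was above 0.1 in 29 (median -0.01, range -0.71 to 0.27). The part above 0.1 was thus larger for pairs of the same number, and the R3 libraries of C2C12 did stand apart. The replicate block gave 10 calls (7 higher, 3 lower) in MLg and 16, 12, 14, 2 and 1 in the other 5 comparisons with co-cultures; under it Col5a3 was called in EO771 with MLg (0.84, adjusted p 0.000304), and in C2C12 with EO771 Col24a1 was called (1.09, adjusted p 0.0498) and Col28a1 was not. Leaving out each library in turn gave 12 to 15 calls in EO771 with C2C12, 11 to 12 with MLg, 12 to 16 between them, 1 to 3 in C2C12, 3 to 10 in MLg (10 without MLg alone R3-2) and 1 to 2 in the difference of responses (2 without MLg alone R3-2). Subtraction turned the log2 fold change of Col6a2 to 0.00 with C2C12 at the upper quartile share; with MLg it gave Col3a1 -0.50, Col6a3 -2.26 and Col6a2 -0.59 at that share, and Col6a3 -0.88, Col1a2 -0.64 and Col12a1 -2.62 at the median share. No fold is given for chains that subtraction left with no counts in a group, but the counts of lower calls include them: in EO771 with MLg Col5a2 at the median share, and Col5a2, Col1a2, Col12a1 and Col1a1 at the upper quartile share. As with C2C12, lower calls that only subtraction gave are no measure of a fall. The cause of the other changes was not tested. Of the named genes' other values 697 kept direction and side of the threshold and 49 lost the call; of the counts 144 stayed within 1.5 times.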
